A study of Mus musculus with 8 samples.

Results

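Microglia that carry CD11c on their surface were compared with microglia that lack it, both sorted from mice with neuromyelitis optica (NMO), in which inflammation strikes the optic nerve and spinal cord. Members of the comparison were chosen by the population label alone: 2 CD11c+ and 3 CD11c- libraries, 5 of the 8 in the series. All came from adult C57BL/6 mice, with no transgene or deletion named, and microglia were sorted ex vivo with antibodies to CD11b, CD45 and CD11c. The fit also holds 3 libraries of unmanipulated control mice, whose population label reads CD11c negative and whose titles read total microglia. The sources used here do not say how NMO was induced, how old the adult mice were or whether a library is 1 animal or a pool, so p-values measure the spread between libraries, which may be technical in part. Replicate numbers only name libraries and pair none of them.

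CD11c, encoded by Itgax, is an integrin alpha chain that pairs with CD18 to form complement receptor 4, and it is best known from dendritic cells. In the brain, few resting microglia carry it, and the CD11c+ share grows around myelin damage, plaques and inflammation. Those cells are known for a disease-associated programme that includes Clec7a, Axl, Cst7 and Gpnmb, for growth factor output and for antigen presentation. The genes described here are mainly those outside that programme and outside the neutrophil markers.

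The CD11c+ libraries held 4943207 and 5914412 counts, the CD11c- libraries 6437516 to 6819662 and the control libraries 7500815 to 9246061. A low-count filter left 12002 of 41388 gene identifiers for testing. Itgax, the sort gene, stood at 188 and 181 CPM (counts scaled to a common library size) in the CD11c+ libraries, at 35.5, 41.3 and 39.97 CPM in the CD11c- libraries and at a mean of 31.2 CPM in controls, so its levels followed the labels. Itgam, which encodes CD11b, was at 2160 and 2276 CPM against 2328 to 2757 CPM, and Ptprc, which encodes CD45, at 704 and 999 CPM against 783 to 861 CPM. The 2 CD11c+ libraries differed from each other more than the CD11c- libraries did, with chi-square per degree of freedom of 34.0 against 7.74 to 12.5. Replicate 1 counted GC-rich genes more: its level, centred per gene, had a Spearman correlation with gene GC content of 0.59 across genes, against -0.30 to -0.04 in the other 4 NMO libraries. Replicate 2 had a mean log2 CPM of immediate-early and stress genes of 8.43, against 6.18 in replicate 1, 5.81 to 7.46 in the CD11c- libraries and 7.89 to 8.66 in controls. Summed neutrophil markers were at 1289 and 1465 CPM in the CD11c+ libraries, 3505 to 12880 CPM in the CD11c- libraries and 1979 to 2948 CPM in controls. For these reasons each gene is given by library, and each group of genes with either CD11c+ library alone.

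Promoters are shown for the sort gene, for the gene with the smallest adjusted p outside the known lists (Chst2) and for 3 MHC class I genes whose levels lay above the CD11c- libraries. MHC promoters are known for a module of an X box, an X2 box and an inverted CCAAT (Y box), on which the coactivators NLRC5 (class I) and CIITA (class II) act. Each line holds the 250 bases before the start site in RefSeq's GRCm38.p6 annotation, 5' to 3' on the gene's strand. Capitals mark TGACG (the core of the X2 box) and CCAAT (the Y box), on either strand.
Itgax, chr7:128129300-128129549, plus strand: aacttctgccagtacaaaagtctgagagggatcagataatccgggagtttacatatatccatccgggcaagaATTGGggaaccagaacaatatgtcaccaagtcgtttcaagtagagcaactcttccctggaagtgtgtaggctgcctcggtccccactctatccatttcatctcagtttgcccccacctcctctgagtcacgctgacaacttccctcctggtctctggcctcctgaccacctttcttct
Chst2, chr9:95407271-95407520, minus strand: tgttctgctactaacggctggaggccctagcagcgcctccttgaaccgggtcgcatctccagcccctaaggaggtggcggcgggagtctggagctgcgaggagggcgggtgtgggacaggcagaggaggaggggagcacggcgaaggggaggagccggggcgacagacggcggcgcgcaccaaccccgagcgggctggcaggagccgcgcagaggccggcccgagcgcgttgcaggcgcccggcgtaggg
H2-Q7, chr17:35438905-35439154, plus strand: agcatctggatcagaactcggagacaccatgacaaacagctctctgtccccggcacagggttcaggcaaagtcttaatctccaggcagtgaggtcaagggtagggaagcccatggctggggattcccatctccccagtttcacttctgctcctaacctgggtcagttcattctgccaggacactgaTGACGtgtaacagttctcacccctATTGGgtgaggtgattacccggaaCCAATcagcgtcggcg
H2-D1, chr17:35262844-35263093, plus strand: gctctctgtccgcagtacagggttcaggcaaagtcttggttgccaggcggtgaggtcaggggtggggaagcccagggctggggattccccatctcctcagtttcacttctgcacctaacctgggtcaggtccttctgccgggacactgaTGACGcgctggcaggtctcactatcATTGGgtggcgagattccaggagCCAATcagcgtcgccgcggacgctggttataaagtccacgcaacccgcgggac
H2-M3, chr17:37269984-37270233, plus strand: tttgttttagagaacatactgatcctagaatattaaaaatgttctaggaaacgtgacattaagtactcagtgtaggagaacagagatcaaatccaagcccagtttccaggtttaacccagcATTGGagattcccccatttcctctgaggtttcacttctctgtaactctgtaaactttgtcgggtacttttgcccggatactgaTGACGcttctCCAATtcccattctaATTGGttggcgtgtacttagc

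In windows of 300 bases (250 before to 50 after the start), both motifs occurred in 7 of the 9 tested class I heavy chain genes and B2m, and CCAAT occurred in 9 of 9. The 3 class I genes shown all held both. H2-Q6 and H2-T23, not shown, held CCAAT but no TGACG, and H2-Q6 separated more widely (log2 difference 1.33) than H2-D1 and H2-M3. Of the 32851 promoters in the RefSeq table, 20.8% held TGACG, 37.4% held CCAAT and 7.73% held both. Among the MHC class II chains and Cd74, 7 of 9 had a window, 6 of these held CCAAT and 1 held both motifs. Of the 12 genes called higher in CD11c+ microglia 10 had a window, and 2 of them (H2-Q7 and Fam20c) held both. The PU.1 motif GAGGAAGT, found in 3.20% of promoters, and the interferon-response core GAAANNGAA, found in 8.56%, occurred in 0 of the 10. In the MHC sets GAGGAAGT occurred in 0 windows. The interferon-response core occurred in 3 of the 9 class I heavy chain genes and B2m. It occurred in 2 of 11 other class I presentation genes with a window and in 0 of the 7 class II windows. All 4 motifs were searched on both strands, and no match was dropped for overlapping another. These matches describe letters in the window, not binding.

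At an edgeR adjusted p under 0.05, 12 genes (0.100% of those tested) stood higher in CD11c+ microglia and 22 (0.183%) stood lower. Leaving out CD11c+ replicate 1 gave 4 and 0, and leaving out replicate 2 gave 1435 and 1581. At an unadjusted p under 0.05 the counts were 948 and 905. Both CD11c+ libraries lay above all 3 CD11c- libraries for 1652 genes (13.8%) and below them all for 1707 (14.2%), and with library-size scaling alone for 1025 and 2525. The 2 libraries were also within 1.5-fold of each other with 0.5 CPM added, here called agreement, for 1533 genes above (12.8%) and 1374 below (11.4%). For all 34 called genes the groups did not overlap, and for 24 of them the 2 libraries agreed. Across all genes, the 2 libraries' log2 differences from the CD11c- mean had a Pearson r of 0.50, as a description over genes that share the same 3 CD11c- libraries, and 56.0% of genes had the same sign in both. After a correction of each library for gene GC content and length, r was 0.55 and 29 genes were called higher and 35 lower, with 32 of the 34 among them.

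**Figure D1:**
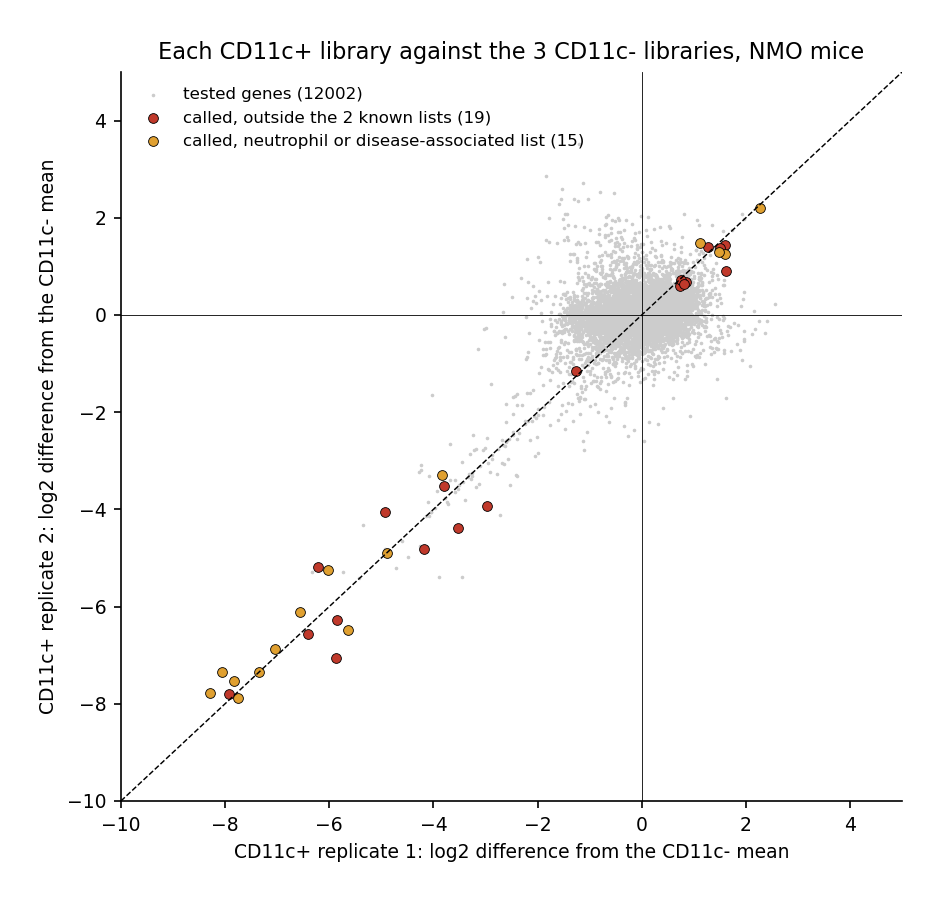
Log2 difference of CD11c+ replicate 1 (x axis) and replicate 2 (y axis) from the mean of the 3 CD11c- libraries, for 12002 genes (grey), 19 called genes outside the neutrophil and disease-associated lists (red) and 15 inside them (yellow); the dashed line marks equal values. Called genes lie near the line at both ends, while the grey cloud around 0 spreads across it.

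Outside the neutrophil and disease-associated lists, 8 genes were called higher in CD11c+ microglia: Chst2, H2-Q7, Fam20c, Gpr162, Ly9, Mical1, Fblim1 and Cd22. The other 4 called higher were Itgax, Clec7a, Axl and Cst7. The 12 genes were also above every control library, and their mean in controls was below that of the CD11c- microglia. By group mean, each was therefore lowest in controls, intermediate in CD11c- and highest in CD11c+ microglia. That order does not bear on the test of the 2 NMO groups alone, and its step from controls to CD11c- microglia was not tested. In Fam20c those 2 groups overlapped, at 6.24, 9.53 and 10.5 CPM in controls and 10.8, 9.94 and 8.96 CPM in CD11c- libraries.

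Chst2, a Golgi sulfotransferase that sulfates N-acetylglucosamine on cell-surface glycans, was the clearest of them. Its levels were 49.0 and 44.0 CPM in the CD11c+ libraries, 15.1, 15.4 and 17.2 CPM in the CD11c- libraries and 4.96 CPM on average in controls. Both CD11c+ libraries stood far above the others and agreed. Its log2 difference was 1.55 (SE 0.149, edgeR adjusted p = 0.00628), and it was called in each of the 8 fits that left out 1 library. It lies on chromosome 9 of GRCm38. Of the other 7, H2-Q7 lies on 17, Fam20c on 5, Gpr162 on 6, Ly9 on 1, Mical1 on 10, Fblim1 on 4 and Cd22 on 7.

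H2-Q7 encodes a Qa-2 molecule, a nonclassical MHC class I protein. It was at 75.4 and 82.1 CPM against 26.04, 31.3 and 36.6 CPM, and at 4.74 CPM on average in controls. The 2 CD11c+ libraries agreed, with a log2 difference of 1.33 (SE 0.174, edgeR adjusted p = 0.0180). Its near-identical neighbours H2-Q6 (189 and 230 CPM against 63.4, 93.8 and 92.1 CPM) and H2-Q5 (39.0 and 39.3 CPM against 13.02, 19.3 and 23.5 CPM) showed the same separation without a call, with edgeR adjusted p of 0.0526 and 0.0990. GENCODE annotates H2-Q5 as a polymorphic pseudogene. How reads were divided among these copies by the authors' counting is uncertain.

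Fam20c, the Golgi kinase that phosphorylates secreted proteins such as osteopontin, was at 28.8 and 26.6 CPM against 10.8, 9.94 and 8.96 CPM. Its log2 difference was 1.48 (SE 0.209, edgeR adjusted p = 0.0223), and the libraries agreed. Gpr162, an orphan G protein-coupled receptor, was at 94.0 and 57.1 CPM against 30.4, 31.3 and 29.2 CPM, a log2 difference of 1.31 (SE 0.189, edgeR adjusted p = 0.0223). Here the direction was shared but the size was not, since replicate 1 exceeded replicate 2 by more than 1.5-fold. After the GC and length correction the libraries agreed, at log2 differences of 1.18 and 0.88.

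The other 4 genes differed less in size. Ly9, a self-binding receptor of the SLAM family, was at 142 and 125 CPM against 77.5, 80.4 and 77.3 CPM, a log2 difference of 0.77 (SE 0.1105, edgeR adjusted p = 0.0223). Fblim1, which encodes the filamin-binding adapter migfilin, was at 63.7 and 62.4 CPM against 36.1, 37.5 and 39.5 CPM, a log2 difference of 0.74 (SE 0.114, edgeR adjusted p = 0.0281). Mical1, an enzyme that oxidises actin filaments, was at 76.2 and 69.4 CPM against 43.4, 47.0 and 47.2 CPM, a log2 difference of 0.67 (SE 0.101, edgeR adjusted p = 0.0275). Mical1 shares exonic bases with another gene, and with the GC and length correction its log2 difference was 0.47 and the call was lost (edgeR adjusted p = 0.0560). Cd22, an inhibitory sialic-acid-binding lectin known from B cells and from phagocytic microglia, was at 63.5 and 56.0 CPM against 36.2, 35.4 and 36.1 CPM, a log2 difference of 0.73 (SE 0.119, edgeR adjusted p = 0.0378). In all 4 the CD11c+ libraries agreed and lay above every CD11c- library. The 9 B cell markers summed to 406 and 401 CPM in the CD11c+ libraries and 405 to 442 CPM in the CD11c- libraries, and Ms4a1, Pax5, Blk and Ly6d had no count in either CD11c+ library. The 15 dendritic cell markers summed to 4719 and 4599 CPM against 4674 to 5395 CPM, and to 5417 to 5717 CPM in controls. That sum includes Siglech, which microglia express (836 and 1238 CPM against 1324 to 1503 CPM), so it does not measure dendritic cell content. Of the 10 tested members 2 lay above all CD11c- libraries and 4 below, and Cd24a and Ly6d had no count in either CD11c+ library.

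The calls depended on single libraries. Without CD11c+ replicate 1, Chst2 stayed called of the 8, and the other 7 had edgeR adjusted p from 0.0745 to 0.103; without replicate 2, all 8 were called. Without CD11c- replicate 1, the 7 other than Chst2 were also lost (edgeR adjusted p from 0.0527 to 0.111), and without control replicate 2 all but Chst2 and H2-Q7 were (0.0518 to 0.106). Without control replicate 3, Gpr162, Ly9, Mical1, Fblim1 and Cd22 were lost, without control replicate 1 Mical1 and Cd22, without CD11c- replicate 2 Fblim1 and Cd22, and without CD11c- replicate 3 Cd22. A fit of the 5 NMO libraries alone called only Chst2 of the 8.

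**Figure D2:**
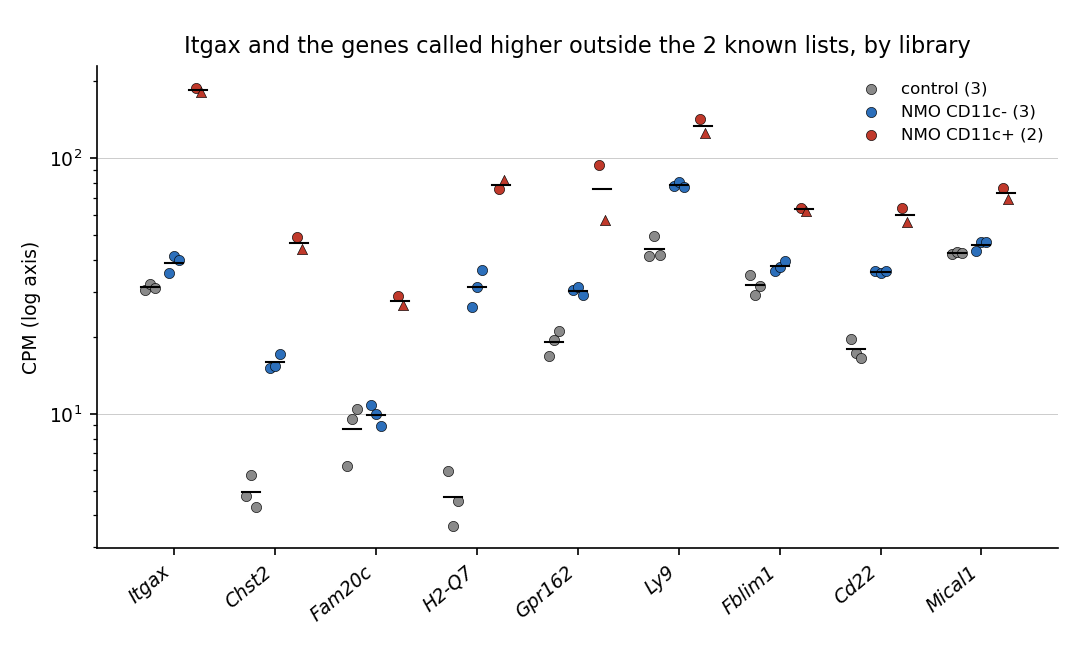
CPM on a log axis of Itgax and the 8 genes called higher outside the known lists, in control (grey), CD11c- (blue) and CD11c+ (red) libraries; the red circle is replicate 1, the red triangle replicate 2 and bars are group means. In each gene both red points lie above all blue and grey points, with the widest gap between them in Gpr162.

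Among genes not called, agreement of the 2 libraries was used to describe what else separated the groups. Of genes outside the known lists at 10 CPM or more, those with the largest separation upwards included, besides the called ones and the H2-Q genes, Il2rg, Slc39a4, H2-K2 and Cd74. H2-K2 is annotated as a transcribed unprocessed pseudogene. Il2rg, the shared gamma chain of several interleukin receptors, was at 19.6 and 19.2 CPM against 7.03, 11.0 and 7.2 CPM, a log2 difference of 1.21 (edgeR adjusted p = 0.0595), and shares exonic bases with another gene. Slc39a4, a zinc importer, was at 28.2 and 24.1 CPM against 12.7, 13.4 and 13.1 CPM, a log2 difference of 0.999 (edgeR adjusted p = 0.0579). None of these passed the test, so they are given as separations between libraries, with the libraries agreeing in each.

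Function lists were described by how many genes had both CD11c+ libraries beyond all 3 CD11c- libraries. Over all tested genes that share was 13.8% above and 14.2% below, and list counts near it are background. In 5 of 26 lists the share above was at least 3 times that over all genes, a multiple chosen after the values were seen: MHC class I, MHC class II, lysosomal, ribosomal protein and ion channel genes. After the GC and length correction the ribosomal list fell under that multiple, at 35.0% against 14.3% over all genes. Counts with 1 CD11c+ library alone have a higher background: 37.9% of all genes lay above all CD11c- libraries and 38.6% below with replicate 1 alone, and 29.3% and 28.5% with replicate 2 alone.

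MHC class I presentation had the highest share of the 26. Both CD11c+ libraries lay above all CD11c- libraries for 16 of its 23 tested genes and below for 0, and they agreed in all 16. The share over all tested genes was 13.8%. The list's median log2 difference was 0.39, against 0.01 over all genes, with 0.54 in replicate 1 and 0.22 in replicate 2. With replicate 2 alone 16 genes lay above (69.6%, against 29.3% over all genes) and 2 below, with replicate 1 alone 20 (87.0%, against 37.9%) and 3, and after the GC and length correction 13 and 0. edgeR called 1 of the 23, H2-Q7, and DESeq2 6, all higher. Of all 12002 tested genes edgeR called 12 higher and DESeq2 107. After the correction H2-M3 was called too.

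Classical heavy chains, which present peptides to CD8 T cells, stood among the 16. H2-D1 was at 2373 and 2079 CPM against 1069, 1305 and 1365 CPM (log2 difference 0.84, edgeR adjusted p = 0.0729). H2-K1 was at 2006 and 2099 CPM against 956, 1197 and 1306 CPM (0.83, edgeR adjusted p = 0.124). H2-M3, which presents formylated peptides, was at 134 and 127 CPM against 91.4, 91.2 and 92.6 CPM, a tight separation of 0.51 on the log2 scale (edgeR adjusted p = 0.0554, and 0.0280 after the correction). The peptide transporter and immunoproteasome genes separated less, and more in replicate 1. Tap1 was at 285 and 228 CPM against 175, 212 and 179 CPM (log2 difference 0.44, and 0.28 after the correction), and Psmb9 was at 110 and 70.1 CPM against 60.2, 82.8 and 59.95 CPM, so that its groups overlapped. H2-D1, H2-K1, Tap1 and Psmb9 are outside the rule for named genes and were chosen after their values were seen.

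Class II genes, which present peptides to CD4 T cells, separated in fewer members. Of 20 tested genes for class II and costimulation, 9 lay above and 1 (Ifi30) below, and the median log2 difference was 0.29. With replicate 2 alone the counts were 16 and 2, and with replicate 1 alone 11 and 6. Cd74, the invariant chain that escorts class II molecules, was at 226 and 219 CPM against 93.5, 141 and 103 CPM (log2 difference 0.99, edgeR adjusted p = 0.0798). H2-Eb1 was at 45.8 and 51.4 CPM against 22.9, 33.0 and 27.9 CPM (0.80, edgeR adjusted p = 0.156). H2-Aa, the partner chain of H2-Ab1, was at 26.6 and 58.1 CPM against 35.2, 44.1 and 31.3 CPM, so the 2 CD11c+ libraries parted on either side of the CD11c- libraries. It was chosen after its values were seen. Cd274, the checkpoint ligand PD-L1, was at 34.9 and 42.6 CPM against 26.3, 28.8 and 24.2 CPM (0.55, edgeR adjusted p = 0.180).

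**Figure D3:**
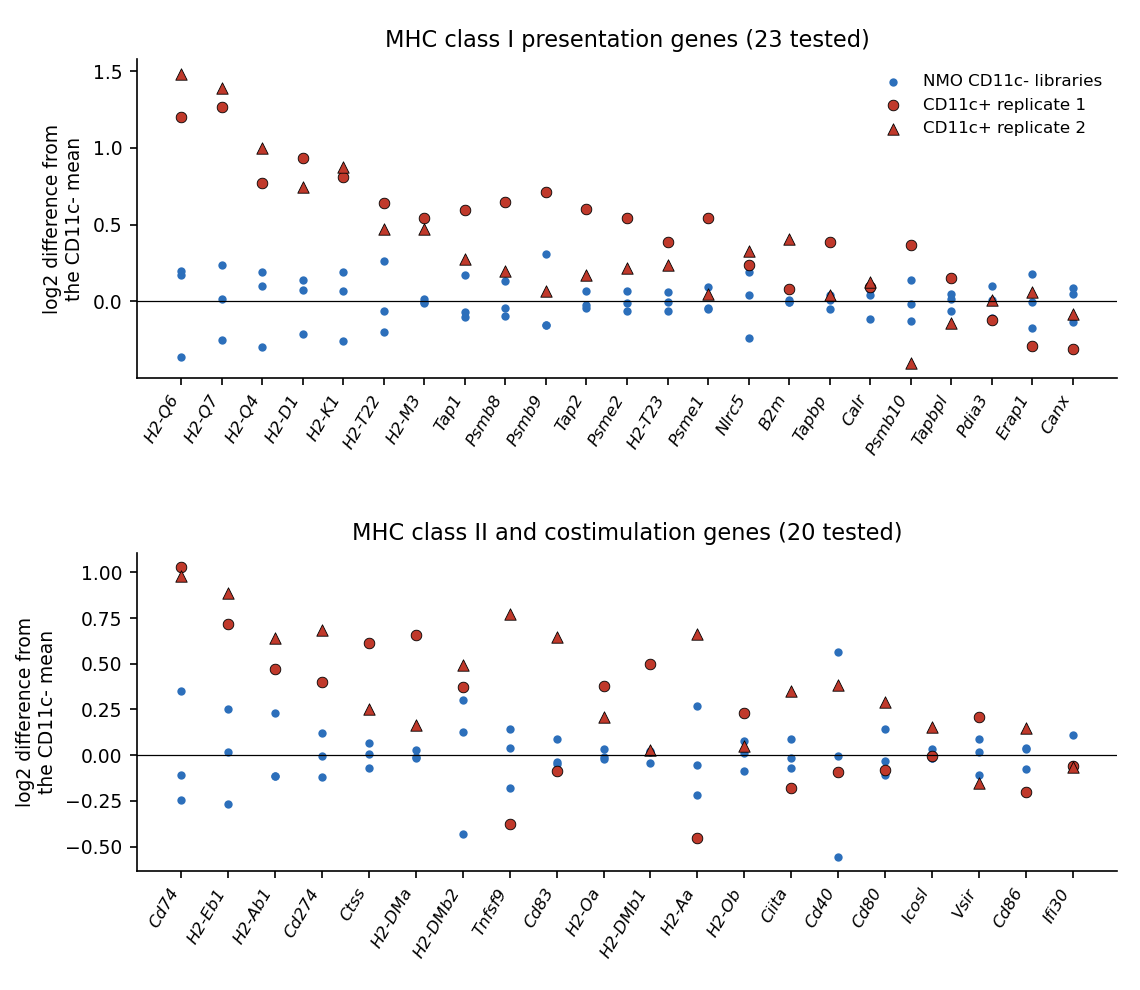
Log2 difference of each NMO library from the CD11c- mean for the 23 tested MHC class I presentation genes (top) and the 20 class II and costimulation genes (bottom), with CD11c- libraries in blue, CD11c+ replicate 1 as red circles and replicate 2 as red triangles. The H2 heavy chain genes at the left have both red marks above every blue point, while Psmb9, H2-Aa and Tnfsf9 have the red marks apart from each other.

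In the type I interferon-response list, 2 of 32 tested genes (Gbp2 and Oasl1) lay above (6.25%, against 13.8% over all genes). Below lay 4 (12.5%, against 14.2%), and the median log2 difference was 0.03. These counts depended on the processing. After the GC and length correction they were 5 and 2 (15.6% and 6.25%, against 14.3% and 14.2% over all genes). Without CD11c- replicate 2 they were 13 and 5 (40.6% above, against 20.7% over all genes). Oas2 was at 78.8 and 108 CPM against 53.3, 85.5 and 74.2 CPM, overlapping, and Bst2 at 145 and 123 CPM against 94.0, 126 and 94.9 CPM. Their control means were 10.4 and 47.8 CPM.

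Lysosomal genes lay above in 19 of 36 and below in 0, with a median log2 difference of 0.22 (0.33 in replicate 1 and 0.16 in replicate 2). edgeR called 0, DESeq2 called 6 higher, and 14 had an unadjusted edgeR p under 0.05 upwards. Across all 12002 tested genes these upward counts were 12, 107 and 948. With replicate 2 alone 27 lay above (75.0%, against 29.3% over all genes) and 0 below. With replicate 1 alone 22 lay above (61.1%, against 37.9%) and 9 below. After the GC and length correction the counts were 18 (50.0%, against 14.3%) and 0. Mcoln1, the lysosomal calcium channel TRPML1, was at 141 and 140 CPM against 102, 111 and 117 CPM (log2 difference 0.36, edgeR adjusted p = 0.176). Gaa, which degrades glycogen in lysosomes, was at 419 and 266 CPM against 213, 204 and 221 CPM (0.69, edgeR adjusted p = 0.124), and Tfeb, the transcription factor that drives lysosomal genes, at 120 and 78.9 CPM against 62.4, 69.4 and 67.4 CPM (0.58, edgeR adjusted p = 0.161). In Gaa and Tfeb the direction was shared, but replicate 1 exceeded replicate 2 by more than 1.5-fold. After the correction the libraries agreed in both, and the log2 differences were 0.40 and 0.25.

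Ribosomal protein genes of the cytoplasm lay above in 19 of 40 and below in 0, with a median of 0.33. edgeR called 0, DESeq2 called 2 higher, and 16 had an unadjusted edgeR p under 0.05 upwards, against 12, 107 and 948 of all 12002 tested genes. After the GC and length correction 14 lay above and 1 below, and the median of replicate 1 went from 0.27 to 0.02. With replicate 2 alone 35 of 40 lay above (87.5%, against 29.3% over all genes) and 0 below, and with replicate 1 alone 21 (52.5%, against 37.9%) and 12. Rplp0, a stalk protein, was at 328 and 254 CPM against 187, 226 and 209 CPM, and Rplp1 at 195 and 190 CPM against 140, 157 and 136 CPM (log2 difference 0.41, and 0.21 after the correction). Rps19 was at 85.0 and 45.8 CPM against 33.5, 46.1 and 34.4 CPM and so overlapped. Genes of this kind have many processed copies in the genome, so the counted share of their reads is uncertain. Oxidative phosphorylation genes lay above in 7 of 34 and below in 0, and in 6 and 2 after the correction. With replicate 1 alone 23 lay above (67.6%, against 37.9% over all genes), and with replicate 2 alone 9 (26.5%, against 29.3%), so replicate 2 was at the background. Without CD11c- replicate 2 the counts were 14 (41.2%, against 20.7% over all genes) and 0. Cox8a was at 78.8 and 63.3 CPM against 42.2, 51.6 and 43.9 CPM (log2 difference 0.63, edgeR adjusted p = 0.0759, and 0.40 after the correction).

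Ion channels and nucleotide receptors, through which microglia sense ATP, calcium stores and stretch, lay above in 13 of 30 and below in 1. The median was 0.19, and 0.05 after the GC and length correction, when 13 lay above and 6 below. P2rx4, an ATP-gated channel, was at 170 and 155 CPM against 110, 113 and 111 CPM (log2 difference 0.54, edgeR adjusted p = 0.0664), and it was called after the correction (0.57, edgeR adjusted p = 0.0331). Trpm2, an oxidant-sensitive calcium channel, was at 358 and 332 CPM against 250, 265 and 258 CPM (0.42, edgeR adjusted p = 0.124). Clic4 was at 29.8 and 31.7 CPM against 21.3, 21.4 and 22.0 CPM (0.51, edgeR adjusted p = 0.173). In these 3 the CD11c+ libraries agreed and the CD11c- libraries were close to each other.

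Immunoreceptors and lectins held single separations in both directions. Slamf8, a SLAM family receptor that restrains oxidant output of phagocytes, was at 44.7 and 45.1 CPM against 28.1, 30.9 and 25.9 CPM (log2 difference 0.67, edgeR adjusted p = 0.0554). Siglecf, a sialic-acid-binding receptor, was at 73.5 and 83.9 CPM against 56.6, 51.3 and 53.8 CPM (0.55, edgeR adjusted p = 0.0586). Both were called after the GC and length correction (edgeR adjusted p = 0.0481 and 0.0469). Of 22 lectin, Siglec and scavenger receptors 1, Siglecf, lay above and 8 lay below (36.4%, against 14.2% over all genes). After the correction 6 lay below (27.3%, against 14.2%). Among the 8 were Clec12a and Clec4a2. Clec12a was at 3.68 and 3.88 CPM against 14.2, 51.6 and 9.55 CPM (log2 difference -2.73, edgeR adjusted p = 0.176), highest in CD11c- replicate 2 like the neutrophil markers. Clec4a2 was at 38.6 and 50.9 CPM against 60.8, 74.5 and 54.7 CPM (log2 difference -0.50, edgeR adjusted p = 0.214). After the correction Clec4a2 was at -0.17 with overlapping groups. Of 27 Fc, LILR and paired immunoreceptors 3 lay above (11.1%) and 5 below (18.5%), near the 13.8% and 14.2% over all genes.

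Sulfation and glycosylation genes, to which Chst2 belongs, lay above in 9 of 29 and below in 7, with a median of 0.09. St8sia6, which adds sialic acid in alpha-2,8 linkage to O-glycans, was at 29.8 and 36.6 CPM against 19.2, 14.8 and 15.7 CPM (log2 difference 1.01, edgeR adjusted p = 0.0759). It was called after the GC and length correction (1.31, edgeR adjusted p = 0.0219). Its control mean of 27.6 CPM was above all 3 CD11c- libraries, unlike Chst2. B4galt6, a galactosyltransferase of glycolipid synthesis, was at 60.7 and 69.9 CPM against 81.5, 81.5 and 84.9 CPM (log2 difference -0.34, edgeR adjusted p = 0.221).

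Growth and repair factors lay above in 6 of 18 and below in 0, with a median of 0.28. edgeR called 0, DESeq2 1, and 6 had an unadjusted edgeR p under 0.05 upwards, against 12, 107 and 948 of all 12002 tested genes. Pdgfa, a mitogen of oligodendrocyte precursors, was at 45.4 and 43.3 CPM against 28.6, 29.7 and 35.1 CPM (log2 difference 0.51, edgeR adjusted p = 0.147). Tgfb1 was at 412 and 400 CPM against 334, 317 and 357 CPM (0.27, edgeR adjusted p = 0.277). The control mean of Tgfb1, 386 CPM, was above every CD11c- library. Vegfb was at 75.8 and 42.1 CPM against 32.5, 38.7 and 35.9 CPM, a shared direction with sizes more than 1.5-fold apart, and after the correction the libraries agreed at log2 differences of 0.59 and 0.15. Csf1, the ligand of the receptor on which microglia depend, was at 102 and 153 CPM against 77.2, 69.7 and 86.3 CPM (0.71, edgeR adjusted p = 0.1102). After the correction its libraries were at 0.15 and 0.98 and did not agree. Csf1 is in the disease-associated list.

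Matrix and surface genes gave single separations rather than a shift of the list. Mmp2, a gelatinase, was at 135 and 126 CPM against 96.1, 89.9 and 92.3 CPM (log2 difference 0.49, edgeR adjusted p = 0.0662), and Icam1 was at 270 and 216 CPM against 186, 184 and 188 CPM (0.39, edgeR adjusted p = 0.200, and 0.24 after the GC and length correction). Plxna1, a semaphorin receptor, was at 14.1 and 15.9 CPM against 8.98, 7.38 and 8.82 CPM (0.84, edgeR adjusted p = 0.0759). The control mean of Plxna1, 12.8 CPM, was above every CD11c- library. Cd47, the ligand of the phagocytosis checkpoint receptor SIRPa, lay on the other side at 76.2 and 106 CPM against 142, 139 and 131 CPM (log2 difference -0.59, edgeR adjusted p = 0.112, and -0.36 after the correction). In Mmp2, Plxna1 and Cd47 the 2 CD11c+ libraries agreed.

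Of the 22 genes called lower in CD11c+ microglia, 11 were outside the known lists. Of the 11, 10 were at 1.94 CPM or less in both CD11c+ libraries, and their levels moved with the neutrophil markers. S100a8, a neutrophil calprotectin subunit, was at 2.04 and 3.70 CPM in the CD11c+ libraries and at 552, 1644 and 346 CPM in the CD11c- libraries. In 20 of the 22 genes CD11c- replicate 2 was the highest of the 3, and in 17 it was at 2-fold or more of the mean of the other 2. All 22 were also lower in both CD11c+ libraries than in every control library. The neutrophil markers Elane, Ly6g and Stfa2l1 had no count in either CD11c+ library, and Csf3r, which microglia also express, made up most of the summed level there (1271 and 1442 CPM, against 1194 to 1264 CPM in the CD11c- libraries). Monocyte markers summed to 75.8 and 163 CPM against 314 to 1271 CPM. With the mean log2 CPM of the neutrophil markers as a covariate (0.61 and 0.82 in CD11c+ against 5.90 to 7.76 in CD11c- libraries, so that it is confounded with the groups), edgeR called 0 genes in either direction, and 404 had an unadjusted p under 0.05. In bulk libraries fewer cells of a type and less RNA per cell cannot be told apart, and the part of neutrophil RNA in these 10 genes was not tested.

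The genes cover several functions. Anxa1, a pro-resolving phospholipid-binding protein, was at 1.23 and 1.06 CPM against 112, 379 and 74.2 CPM, a log2 difference of -7.35 (SE 1.01, edgeR adjusted p = 0.0196), and Fpr2, its formyl peptide receptor, had 2 counts in the CD11c+ group against 225, a ratio of 59.1 (95% interval 16.2 to 491, counting error only). Chil3, a chitinase-like protein of myeloid cells, was at 0.613 and 0.705 CPM against 197, 866 and 114 CPM, a log2 difference of -9.17 (SE 1.31, edgeR adjusted p = 0.0223). Cd177, a neutrophil surface protein, was at 1.43 and 0.352 CPM against 84.8, 280 and 59.95 CPM, with a log2 difference of -7.34.

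Slfn4, a myeloid Schlafen protein, was at 0.817 and 1.94 CPM against 33.5, 70.3 and 26.7 CPM, and Gda, guanine deaminase, at 0.817 and 0.352 CPM against 20.6, 43.8 and 14.1 CPM. Hp, the haemoglobin scavenger haptoglobin, had 3 counts against 1323, a ratio of 232 (95% interval 79.1 to 1124). Nfe2, a transcription factor of the megakaryocyte and erythroid lineages, had 3 counts against 206, a ratio of 36.1 (12.2 to 176). Ifitm6 had 3 counts against 931, a ratio of 163 (55.6 to 792). In Anxa1 and Chil3 the 2 CD11c+ libraries were within 1.5-fold of each other in CPM, and in the other 8 a few counts put them further apart. Beyond the called genes, Cd24a had 0 counts in both CD11c+ libraries against 521, so it was at least 91.2-fold lower, taking 3 counts over the group as the floor, and Trem3 had 0 against 208, at least 36.4-fold lower. Neither was called, at edgeR adjusted p of 0.0554 and 0.0664.

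Calcrl, the receptor for calcitonin gene-related peptide and adrenomedullin, did not move with the neutrophil markers. It was at 12.5 and 13.4 CPM against 29.2, 31.6 and 30.9 CPM, with a control mean of 30.3 CPM. Both CD11c+ libraries agreed, and the CD11c- libraries were level with controls although their neutrophil markers differed several-fold. The log2 difference was -1.24 (SE 0.165, edgeR adjusted p = 0.0180). After the GC and length correction it was -0.86, the libraries no longer agreed (-0.50 and -1.12) and the call was lost (edgeR adjusted p = 0.0880), as it was without CD11c+ replicate 1, when all 11 lower genes were lost (edgeR adjusted p from 0.0745 to 0.150). All 11 were also lost in the fit of the 5 NMO libraries alone (0.0603 to 0.160) and without control replicate 2 (0.0518 to 0.0941), 5 without control replicate 3, 4 without CD11c- replicate 1 and 2 without control replicate 1, and none without CD11c+ replicate 2.

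**Figure D4:**
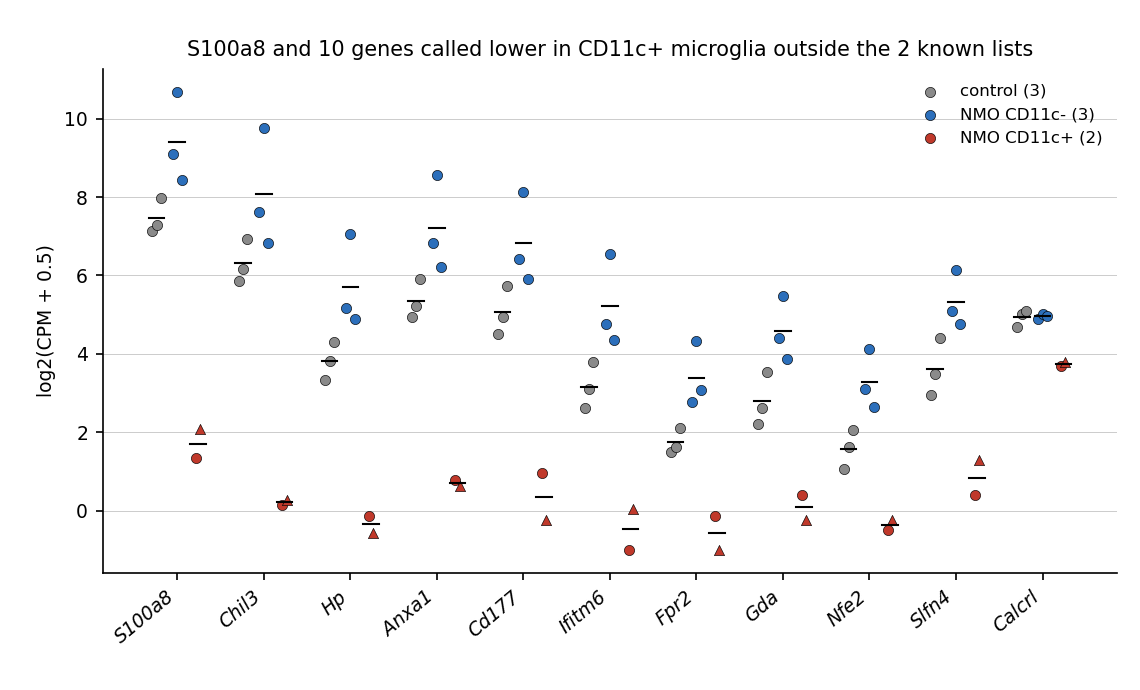
Log2 of CPM plus 0.5 for S100a8 and 10 of the 11 genes called lower outside the known lists, in control (grey), CD11c- (blue) and CD11c+ (red) libraries, with bars for group means; the red circle is replicate 1 and the triangle replicate 2. All genes plotted but Calcrl share the blue pattern of S100a8, with CD11c- replicate 2 well above the other blue points. In Calcrl the blue points lie close together, at 29.2, 31.6 and 30.9 CPM, within the grey range of 25.2 to 33.9 CPM.

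Chemoattractant receptors, which steer migration, lay below in 11 of 24 (45.8%, against 14.2% over all genes) and above in 3 (12.5%, against 13.8%). Their median log2 difference was -0.19. How many of the 11 moved with the neutrophil markers was not tested. With replicate 1 alone 13 lay below (54.2%, against 38.6% over all genes) and 8 above, and with replicate 2 alone 17 (70.8%, against 28.5%) and 5. After the GC and length correction 10 lay below and 4 above, and the median of replicate 1 went from -0.29 to 0.03 while that of replicate 2 was -0.30. Cxcr2, itself in the neutrophil list, and Fpr2 were called. Ltb4r1, which detects leukotriene B4, was at 0.613 and 0.529 CPM against 8.08, 28.8 and 4.41 CPM, with the same CD11c- replicate highest as for the neutrophil markers. Lpar6, a lysophosphatidic acid receptor, was at 60.3 and 98.7 CPM against 128, 158 and 129 CPM (log2 difference -0.80, edgeR adjusted p = 0.124), with a control mean of 127 CPM, so replicate 1 lay further below than replicate 2. After the correction its difference was -0.39. Gpr34, a microglial receptor for lysophosphatidylserine, was at 719 and 1201 CPM against 1660, 1260 and 1495 CPM (log2 difference -0.62, edgeR adjusted p = 0.228), again with the 2 libraries more than 1.5-fold apart, and -0.34 after the correction. In Lpar6 and Gpr34 the corrected libraries agreed.

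Homeostatic microglia genes lay below in 6 of 28 (21.4%, against 14.2% over all genes) and above in 1, with a median of -0.10. After the GC and length correction 9 lay below (32.1%, against 14.2%) and 0 above. Without CD11c- replicate 2, 14 lay below (50.0%, against 21.7% over all genes), and with library-size scaling 11 did (39.3%, against 21.0%). P2ry12, the ADP receptor that directs microglial processes, was at 1950 and 2760 CPM against 3854, 2787 and 3461 CPM, and at 4748 CPM on average in controls. Replicate 2 lay just below CD11c- replicate 2, and after the correction the groups overlapped. Siglech, a lectin of microglia, was at 836 and 1238 CPM against 1503, 1324 and 1413 CPM (log2 difference -0.45, edgeR adjusted p = 0.263). Among transcription factors, 7 of 36 lay above (19.4%, against 13.8% over all genes) and 5 below (13.9%, against 14.2%). After the correction the counts were 5 and 5, at the background. Those above included Irf8 at 1075 and 840 CPM against 757, 752 and 722 CPM and Bhlhe41 at 264 and 284 CPM against 208, 215 and 206 CPM. Pattern-recognition receptors lay below in 7 of 25 and above in 2, with Tlr5 at 17.2 and 15.2 CPM against 28.6, 21.5 and 28.2 CPM (log2 difference -0.69, edgeR adjusted p = 0.133). Cell cycle genes lay below in 4 of 32 (12.5%, against 14.2% over all genes) and above in 1, which with all libraries is no more than the background. Without CD11c- replicate 3, 11 lay below (34.4%, against 18.2% over all genes), so this reading depended on that library. The 4 include Mki67 at 19.2 and 22.2 CPM against 37.9, 92.6 and 32.03 CPM, the pattern of the neutrophil markers.

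In 10 of the 26 lists the medians of the 2 CD11c+ libraries had opposite signs, and in 3 of these both medians were beyond 0.25, a limit chosen after the values were seen. The median log2 difference of the 31 immediate-early and stress genes was -0.57 in replicate 1 and 1.60 in replicate 2. Replicate 2 alone lay above all CD11c- libraries in 29 of the 31, replicate 1 alone in 0. Ier3 was at 39.8 and 236 CPM against 35.9, 80.9 and 94.8 CPM, and Jund at 222 and 505 CPM against 116, 257 and 241 CPM, so neither separated the groups. Fosl2 was the exception, at 25.1 and 27.5 CPM against 31.4, 32.8 and 34.2 CPM, with both libraries below. CC and CXC chemokines had medians of -0.54 and 0.79, and NF-kB and inflammatory cytokine genes -0.27 and 0.36. In the fit to all libraries these 3 lists had medians of 0.75, 0.39 and 0.23.

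Within those lists a few genes agreed. Cxcl16, a transmembrane chemokine, was at 135 and 162 CPM against 86.2, 102 and 93.8 CPM (log2 difference 0.66, edgeR adjusted p = 0.0554), and it was called after the GC and length correction (0.64, edgeR adjusted p = 0.0331). It shares exonic bases with another gene. Nfkb2, a subunit of the noncanonical NF-kB pathway, was at 99.1 and 98.0 CPM against 70.2, 72.9 and 78.8 CPM (0.41, edgeR adjusted p = 0.119), and its partner Relb at 83.8 and 64.3 CPM against 47.1, 54.5 and 48.9 CPM (0.56, edgeR adjusted p = 0.123). After the correction Nfkb2 was at 0.18 with overlapping groups, while Relb still separated. Ccl5, a chemokine for T cells, was at 13.5 and 24.5 CPM against 8.53, 13.7 and 9.26 CPM and so overlapped narrowly.

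**Figure D5:**
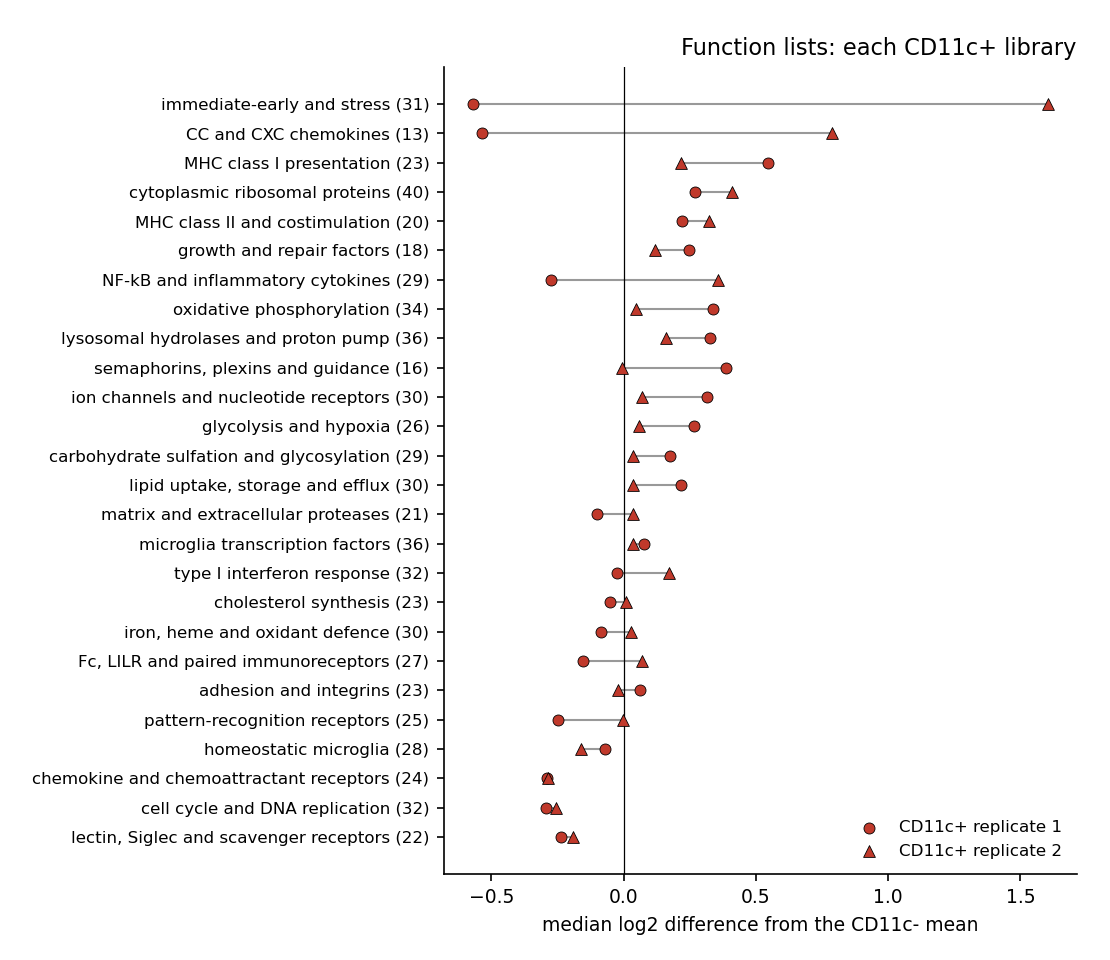
Median log2 difference from the CD11c- mean over the tested genes of each of 26 function lists (number of genes in parentheses), for CD11c+ replicate 1 (circles) and replicate 2 (triangles). Both medians are above 0 in 11 lists, both below 0 in 5 and of opposite sign in 10, with the widest gap for immediate-early and stress genes.

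Metabolic lists were closer to the share over all genes (13.8% above and 14.2% below). Lipid uptake, storage and efflux genes lay above in 4 of 30 and below in 2, cholesterol synthesis genes in 2 and 3 of 23, glycolysis and hypoxia genes in 6 and 1 of 26, and iron, heme and oxidant defence genes in 7 and 4 of 30. Npc2, which hands cholesterol out of the lysosome, was at 665 and 606 CPM against 505, 490 and 505 CPM (log2 difference 0.35, edgeR adjusted p = 0.214). Slc11a1, a metal transporter of the phagosome, was at 719 and 560 CPM against 461, 462 and 448 CPM (0.48, edgeR adjusted p = 0.154). Slc2a3, a glucose transporter of neutrophils and neurons, was at 9.60 and 10.4 CPM against 23.8, 43.2 and 21.9 CPM (log2 difference -1.56, edgeR adjusted p = 0.0772), again highest in CD11c- replicate 2. edgeR called 0 genes of these 4 lists. DESeq2 called 1 lipid and 4 iron and oxidant genes higher and 1 glycolysis gene lower, and the unadjusted edgeR p was under 0.05 upwards for 5, 1, 6 and 5 genes in the order given. Across all 12002 tested genes DESeq2 called 107 higher and 161 lower, and 948 had an unadjusted edgeR p under 0.05 upwards.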

How the data were processed

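Sorted microglia were profiled by RNA-seq in 8 libraries of total RNA. Per the submitters' processing notes, tools named are STAR, HTSeq 0.5.4 and edgeR 3.12.0, with build GRCm38. The authors deposited whole-number read counts per Ensembl gene, unnormalised, 1 file per library. Of 41388 identifiers, 40254 had a symbol in GENCODE M21 and 1134 had none. Whether counting used strand is not given in the sources used here, and 2792 tested genes share exonic bases with another coding gene, among those named Mical1, Fpr2, Il2rg, Cxcl16, Nfkb2, Lpar6, P2ry12, Itgam, Tap1 and Psmb9.

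The counts were fitted with edgeR 4.0.16 (R 4.3.3): low-count filtering with filterByExpr on groups (minimum count 10), TMM scaling, and a quasi-likelihood test in 1 fit of 8 libraries with a group term, Benjamini-Hochberg adjusted over 12002 genes (threshold 0.05; 5 residual degrees of freedom). The fitted contrast was CD11c+ minus CD11c-. CPM used TMM-scaled sizes, and per-library differences added 0.5 CPM before log2. Standard errors are the log2 difference divided by the root of the F statistic. The GC and length correction fitted a loess (span 0.3) per library and entered it as an offset, for 99.53% of tested genes. Where the CD11c+ group had 3 counts or fewer, ratios come from summed counts with exact 95% intervals. The fit was tested on simulated data.

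Named genes were Itgax, Itgam and Ptprc; called genes outside the neutrophil and disease-associated lists; of genes with separated groups at 10 CPM or more, the 10 most separated each way; and up to 3 per function list by unadjusted p at 5 CPM or more. The rule names 105 genes, of which the text gives those that matter; some genes are not reported here. The members, lists and tests were chosen with earlier results of these data known. Alternatives changed the scaling, filter, tool, libraries, GC correction and covariates. All 13 marker lists were summed: border-associated macrophage markers were at 2102 and 1328 CPM against 1568 to 1689 CPM, T cell at 49.8 and 52.3 against 58.1 to 64.9, astrocyte at 146 and 128 against 127 to 166, oligodendrocyte at 188 and 160 against 146 to 164, endothelial at 60.7 and 51.6 against 39.7 to 50.4, microglia at 32831 and 34066 against 33322 to 41061, and NK cell, neuron and erythrocyte at 5.39 or less in each NMO library.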

Additional observations from a re-analysis of the deposited data

How the results depend on the processing

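No paired analysis was possible because the labels tie no CD11c+ library to a CD11c- library. Genes called higher and lower numbered 12 and 22, and 12 and 22 with RLE, 14 and 22 with upper-quartile and 8 and 24 with library-size scaling. They were 264 and 443 with no low-count filter, 15 and 23 with a minimum count of 30, 107 and 161 with DESeq2, 2 and 3 in the 5 NMO libraries alone, 29 and 35 with the GC and length correction, 0 and 0 with the neutrophil covariate and 66 and 90 with the immediate-early covariate. Leaving out 1 library gave 3 to 1435 higher and 0 to 1581 lower: both ends of the lower range, and the upper end of the higher, came from leaving out CD11c+ replicate 1 or 2. With the correction as well, chosen after seeing the data, the counts were 5 and 0 without replicate 1 and 350 and 239 without replicate 2. Genes with both CD11c+ libraries above numbered 1652, 1025 with library-size scaling and 2025 to 4548 on leaving out an NMO library, and those below 1707 and 2076 to 4631, where fewer libraries make separation easier. The causes of the other moves were not tested.

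Of the 105 named genes, the sign of the log2 difference turned for 26 with the neutrophil covariate, none of them called there. It became positive for Slfn4 (0.459), Gda (0.217), Nfe2 (0.140), Ifitm6 (0.145), Itgb2l (0.702), Serpinb1a (0.347), Pglyrp1 (2.26), Slc2a3 (1.73), Fcnb (3.38), Lpar6 (0.341), Ltb4r1 (4.66), Clec12a (5.25), Adam8 (1.16), Mki67 (3.09), Clec4a2 (0.465), Rrm2 (5.17) and Plxnc1 (4.84). It became negative for Slc2a1 (-0.413), Npc2 (-0.0326), Cdkn1a (-0.448), Pnpla2 (-0.0282), Plin2 (-0.0042), Tgfb1 (-0.0579), Fcgrt (-0.0778), Scap (-0.0151) and Ptprc (-0.00065). With the GC and length correction and without replicate 2, signs turned for Nfkb2 (-0.0454), Clec4a2 (0.0059), Hmgcs1 (0.0404), Jund (-0.470) and Ier3 (-1.03), and without replicate 1 for Fcgrt (-0.113) and Scap (-0.135). On leaving out 1 library Fcgrt ranged from -0.0975 to 0.848, Scap from -0.110 to 0.657, Ier3 from -0.826 to 1.74 and Ptprc from -0.246 to 0.261. Ptprc was also at -0.0331 with library-size scaling and -0.0340 with the immediate-early covariate. These fitted values include genes with 3 counts or fewer. Signs of the other named genes held under every setting run. The CD11c+ libraries are the shallowest, so genes of a few CPM there carry wide counting error.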

Other observations

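The GC and length correction added 18 genes called higher and 14 lower. Those given here are outside the lists and were chosen after their values were seen. Haao, an enzyme that turns a kynurenine product of tryptophan into quinolinate, was at 29.0 and 25.02 CPM in the CD11c+ libraries against 14.8, 15.96 and 15.9 CPM in the CD11c- libraries and 8.74 CPM on average in controls, with a corrected log2 difference of 0.74 (edgeR adjusted p = 0.0416, and 0.0554 uncorrected). Epb41l3, a membrane skeleton protein, was at 53.9 and 52.3 CPM against 34.1, 30.4 and 37.3 CPM (corrected 0.67, edgeR adjusted p = 0.0332).

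In the other direction, Cd276, the checkpoint ligand B7-H3, was at 39.4 and 39.8 CPM against 62.4, 53.8 and 63.9 CPM, and at 69.01 CPM on average in controls (corrected log2 difference -0.76, edgeR adjusted p = 0.0331, and 0.0591 uncorrected). Tmem44 was at 92.5 and 88.1 CPM against 142, 131 and 143 CPM (corrected -0.70, edgeR adjusted p = 0.0144). Actn1, an actin crosslinker, was at 41.3 and 30.1 CPM against 57.6, 71.2 and 50.7 CPM (corrected -0.84, edgeR adjusted p = 0.0498). Unlike the lower genes that moved with the neutrophil markers, Cd276 and Tmem44 were not highest in CD11c- replicate 2.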
